A study of Mus musculus with 12 samples.

Results

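Early suprabasal keratinocytes are the cells of the stratified esophageal epithelium that have left the basal layer and begun to differentiate. Basal keratinocytes divide while attached to the basement membrane through hemidesmosomes and express keratins 5, 14 and 15. As they move upward they cease to divide, replace those keratins with keratins 4 and 13, build more desmosomes and prepare the cornified surface. Here they were defined by a ranking and not by a sort. Within each mouse, non-dividing and non-cornified cells were ordered by the log2 ratio of Krt4 and Krt13 counts to Krt5, Krt14 and Krt15 counts, the order was split into 4 equal bins, and the third bin from the lowest ratio was taken. This gave 693 cells of 4386 barcodes, or 16.1% of the 4317 barcodes that passed the limits of at least 200 genes and at most 20% mitochondrial counts. The second bin (691 cells, more basal) and the fourth bin (691 cells, more differentiated) were its neighbours.

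The source was esophageal epithelium, peeled off the wall, of C57BL/6 mice. RNA was measured with inDrop, which encapsulates cells in droplets with barcoded hydrogel beads so that each cell's RNA carries its own barcode. Young mice were up to 4 months and aged mice at least 18 months old, with 3 numbered mice per group and 2 libraries per mouse. No genetic change or treatment is given in the labels, and they do not say if a number stands for a single animal or for pooled animals. P-values therefore measure the spread between these numbered mice. Between the 2 libraries with the same mouse number, 171 to 1121 barcodes were shared, which was 88.1% to 97.8% of the barcodes found in either, so they were summed as repeat measurements of the same cells. Libraries of different mice shared 0 to 14 barcodes. Libraries held 257134 to 1356061 counts, and the summed members of a mouse held 98647 to 374338.

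The members numbered 34, 201 and 98 in aged mice 1 to 3 and 146, 94 and 120 in young mice 1 to 3. Because each mouse was ranked by itself, the same bin lay at different ratios. The median ratio of the members (log2) was 1.01, 2.42 and 3.03 in aged mice 1 to 3 and 2.89, 1.43 and 3.09 in young mice 1 to 3, so aged mouse 1 and young mouse 2 contributed the most basal-leaning members. In aged mouse 2, the members started at a ratio of 0.89 with the last cell below at 0.87, and ended at 4.07 with the next cell above at 4.08. At the top of aged mouse 1 the last member was at 3.22 and the next cell at 3.49. At the bottom of young mouse 2 the last cell below was at -0.14 and the first member at 0.00. At the bottom of aged mouse 1 the last cell below and the first member were both at -0.585. At the top of young mouse 2 the last member and the next cell were both at 3.17. The order of barcodes decided these ties. The first members of aged mouse 1 thus had more counts of the basal keratins than of Krt4 and Krt13. Small steps at a cut follow from cutting a dense ranking, so they do not show if the members form a group of their own.

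The keratins that chose the cells are given as a description. Krt4 reached 10289, 27507 and 32591 counts per 1000000 counts (CPM) in the members of the aged mice and 31302, 14913 and 30806 in those of the young mice. Krt13 reached 13026, 12620 and 16101 CPM in the members of the aged mice and 14159, 10365 and 19066 CPM in those of the young mice. Both keratin pairs were present together in 675 of the 693 members (97.4%), but in 86.17% of those of young mouse 2. In that mouse, 14 of the 94 members had fewer than 10 counts over all 5 ranked keratins, against 0 to 2 in each other mouse. A cell with hardly any keratin has a ratio near 0. A ratio of 0 fell inside the third bin in young mouse 2 and also in aged mouse 1, where 1 of the 34 members was such a cell. Why young mouse 2 held more of them was not tested. Of the 19 such members over all mice, 11 carried at least 3 counts of fibroblast markers and 6 at least 3 counts of immune markers, and the label does not hold for these cells.

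The summed fibroblast markers (8 of 8 detected) spanned 32.1 to 770.4 CPM in the members of aged mice and 21.3 to 2582 CPM in those of young mice. The summed immune markers (7 of the 7 with a row) spanned 4.01 to 30.4 CPM in the aged and 0 to 1746 CPM in the young mice. With the 19 low-keratin cells left out, the fibroblast sum was at most 241.2 CPM in the aged and 169.8 CPM in the young mice, and the immune sum at most 31.3 and 18.3 CPM. In aged mouse 1, leaving out 1 cell took the fibroblast sum from 770.4 to 93.8 CPM. Endothelial markers stayed at or below 53.6 CPM with all members. The 4 tested fibroblast markers had a median log2 fold change between aged and young of -2.53 with all members (none called in edgeR or DESeq2, with 3 below 0.05 in edgeR before adjustment), and the 1 that still passed the filter on low counts without the 19 cells was at 1.29. Over all members, 187 had a barcode that differed from another barcode of the same mouse by 1 base.

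**Figure D1:**
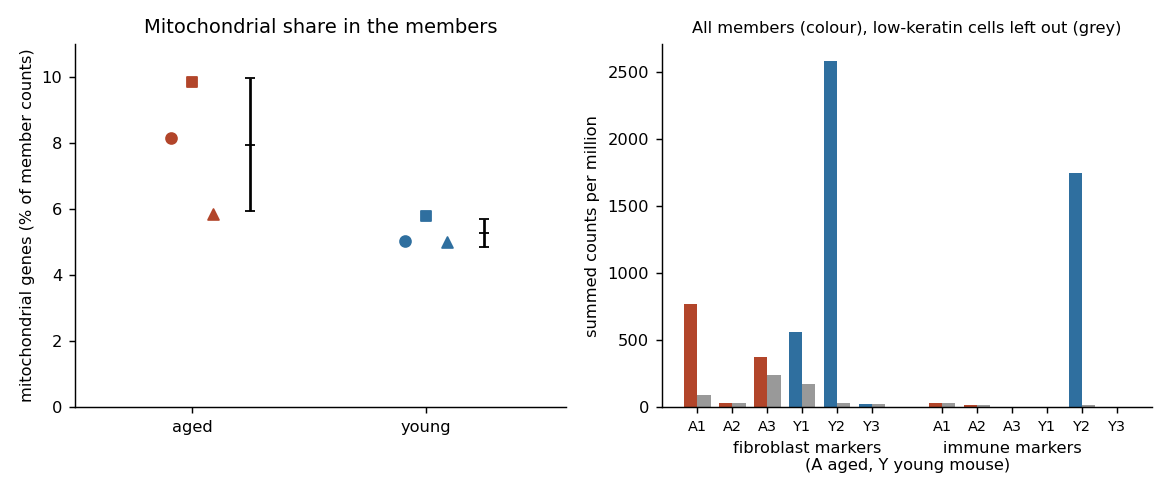
Left, mitochondrial genes as a percent of all counts in the members of each mouse (points; bars are the mean and SD over 3 mice). Right, summed CPM of fibroblast and immune markers in the members of each mouse, with all members in colour and with the 19 low-keratin cells left out in grey; young mouse 2 stands at 2582 and 1746 CPM before, and at 30.5 and 18.3 CPM after, those cells are left out.

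Thbd, Adh7 and Cyp2f2 are the markers that the rule did not use. Thbd encodes thrombomodulin, a thrombin receptor. On GRCm38, in the GENCODE vM21 annotation, it lies on the minus strand at chr2:148404466-148408188. Adh7, on the plus strand at chr3:138217760-138233382, encodes the class of alcohol dehydrogenase that oxidises retinol and ethanol in the upper digestive tract. Cyp2f2, on the plus strand at chr7:27119909-27133660, encodes a cytochrome P450 that oxidises small aromatic molecules. All are protein-coding.

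All 3 were higher in the members than in the second bin, and none differed from the fourth past the threshold. Thbd stood at 456, 419 and 701 CPM in the members of the aged mice and at 589, 279 and 387 CPM in those of the young mice, and was higher than in the second bin in 6 of 6 mice. The mean rose from 247.7 CPM in the second bin to 471.7 in the members and was 476.3 CPM in the fourth. In edgeR's quasi-likelihood test with the mouse as a block, and with Benjamini-Hochberg adjustment over all tested genes, this was a log2 fold change of 0.96 (SE 0.15, adjusted p = 2.9e-06) against the second bin and of -0.03 (SE 0.14, adjusted p = 0.94) against the fourth. Adh7 differed by 0.73 (SE 0.09, adjusted p = 7.8e-09) from the second and by 0.05 (SE 0.08, adjusted p = 0.77) from the fourth bin. Cyp2f2 differed by 0.72 (SE 0.09, adjusted p = 7.8e-09) and 0.03 (SE 0.08, adjusted p = 0.90). Adh7 and Cyp2f2 were each above the second bin in 6 of 6 mice. Krt4, by which the cells were ranked, went on from 24568 CPM in the members to 48562 in the fourth bin.

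Per cell, Thbd was counted in 42.9% of the members, 23.3% of the second, 42.1% of the fourth and 11.8% of the first bin. Thinned to 1000 counts per cell, with shallower cells left out (637 members kept), the shares were 30.5%, 16.2%, 27.1% and 7.97%. The median depth of a member was 1766 to 2702.5 counts by mouse, against 1712 to 2260.5 in the first bin. Adh7 was counted in 88.4% of thinned members, against 76.2% of the second, 82.5% of the fourth and 55.5% of the first bin. Cyp2f2 was counted in 89.8% of thinned members, against 77.3%, 91.6% and 60.1% of those bins. Among thinned members the Thbd share ranged over mice from 19.8% (young mouse 2) to 45.1% (aged mouse 3). Adh7 had a median of 2 to 4 counts per thinned member by mouse, and Cyp2f2 of 3 to 5. The part of free RNA from lysed cells in these shares was not tested.

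**Figure D2:**
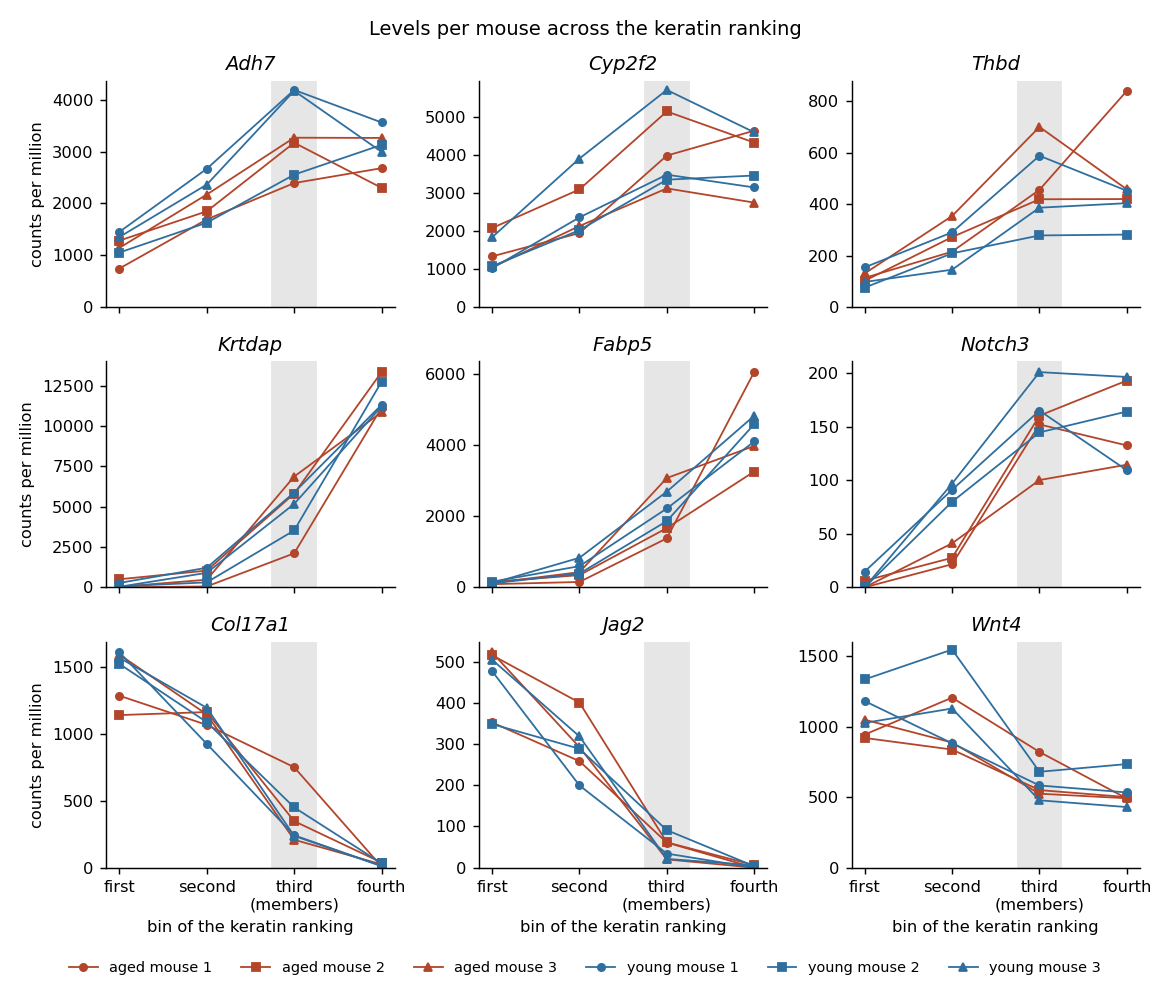
CPM of 9 genes in each bin of the keratin ranking, 1 line per mouse, with the members shaded; each panel has its own axis from 0. The means of Adh7, Cyp2f2, Thbd and Notch3 rise up to the members and differ little from there to the fourth bin, Krtdap and Fabp5 go on rising, Col17a1 and Jag2 go on falling, and Wnt4 falls between the second bin and the members.

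Against the second bin, 520 of 5303 tested genes were higher in the members (9.81%) and 413 were lower (7.79%). The 27 genes of the rule were left out of these tests. The bins were cut from keratin counts of the same cells, so the tests ask which other genes changed along the keratin ratio. Median depth changed along it too. It was higher in the members than in the second bin in 6 of 6 mice, at a mean of 2249 against 1960 counts per cell (exact sign-flip p = 0.03125, the smallest that 6 mice allow; 0.0625 adjusted over 4 such tests). The part of depth in the gene results was not tested.

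Krtdap, a keratinocyte differentiation-associated secreted protein, stood at 2109, 5813 and 6873 CPM in the members of the aged mice and at 5882, 3530 and 5174 CPM in those of the young mice. It was 7.72-fold higher than in the second bin (log2 fold change 2.95, SE 0.25, adjusted p = 1.4e-12) and higher in 6 of 6 mice. Acer1, an alkaline ceramidase, averaged 52.3 CPM against 3.39 CPM (log2 fold change 3.82, SE 0.49), from 96 counts against 5 over the 6 mice. Elovl4, which elongates very long fatty acids, averaged 95.5 against 11.7 CPM (2.96, SE 0.44). Sqle, Cyp51 and Hsd17b7, 3 enzymes of sterol synthesis, were higher by 3.20, 2.77 and 2.88 on the log2 scale. Serpinb3a, a protease inhibitor, was higher by 3.72, Endou, an endoribonuclease, by 3.28, Elf5, an epithelial ETS transcription factor, by 3.23 and Krt80 by 3.12. Each of these was higher in 6 of 6 mice, with adjusted p-values of at most 1.5e-06. Rnase1, a secreted ribonuclease, averaged 51.3 CPM from 84 counts, against 4 counts in the second bin.

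Jag2, a Notch ligand, fell from a mean of 293.1 CPM in the second bin to 48.1 in the members (log2 fold change -2.68, SE 0.23, adjusted p = 2.0e-12). Its level was 60.8, 61.4 and 20.03 CPM in the members of the aged mice and 34.1, 91.1 and 21.3 CPM in those of the young mice, below the second bin in 6 of 6. Dll1, another Notch ligand, changed by -2.91 (SE 0.44), and Dlk2, a non-canonical Delta-like protein, by -3.56 (SE 0.40). Igfbp3 and Igfbp7, which belong to the insulin-like growth factor binding protein group, changed by -3.05 and -2.33. Snai2, the transcription factor Slug, changed by -2.48, Smoc2, a matrix protein, by -2.33, Itga3, an integrin subunit, by -2.33 and Tns1, which links integrins to actin, by -2.39. The change in Tns1 was -3.06 without the 19 low-keratin cells, and Sema3d, a secreted semaphorin, changed by -3.07 with and -3.78 without them. Dsg2, the desmoglein of simple and basal epithelia, changed by -2.79 (SE 0.47, adjusted p = 9.9e-06).

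Against the fourth bin, 392 of the 5303 genes were higher in the members (7.39%) and 347 lower (6.54%). Which side was larger depended on the scaling. With DESeq2's size factors in edgeR 340 were higher and 421 lower. With totals of genes outside the rule 435 were higher and 308 lower. Depth again moved with the comparison, at a median of 2249 counts per member against 2679 per fourth-bin cell, lower in 6 of 6 mice (exact sign-flip p = 0.03125; 0.0625 adjusted over 4 tests). The mean difference was -430 counts, and -1272 with barcodes 1 base apart merged. The members still held RNA of attachment genes that the fourth bin had nearly lost. Col17a1, the hemidesmosomal collagen XVII, stood at 750, 347 and 208 CPM in the members of the aged mice and at 242, 450 and 237 CPM in those of the young mice, against a mean of 21.1 CPM in the fourth bin (log2 fold change 3.74, SE 0.26, adjusted p = 9.3e-15). Lamb3, a laminin-332 chain, was higher by 3.83, Itgb4, the hemidesmosomal integrin subunit, by 2.95, Cav1, caveolin, by 3.95, Wfdc2, a secreted protein with protease inhibitor domains, by 4.12 and Wnt10a, a WNT ligand, by 2.51. Each was higher in 6 of 6 mice. The levels of Lamb3 and Cav1 in the fourth bin rested on 6 counts each, and that of Wfdc2 on 8.

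Some of the genes higher than in the fourth bin are also fibroblast genes. Dcn, the matrix proteoglycan decorin, stood at 476, 32.1 and 184 CPM in the members of the aged mice and at 139, 830 and 15.2 CPM in those of the young mice, highest in young mouse 2. It was counted in 34.05% of first-bin, 15.2% of second-bin, 6.64% of member and 0.72% of fourth-bin cells. Dcn is thus not confined to low-keratin cells, and it is among the fibroblast markers summed above. Its log2 fold change over the fourth bin was 5.74 with all members and 3.81 without the low-keratin cells. Sparc, another matrix protein, went from 4.25 to 2.24. Without those cells Sparc was below the second bin (-1.60, adjusted p = 8.1e-04 by edgeR), where with them the difference was -0.37 (adjusted p = 0.62). Of the 4 tested fibroblast markers, 4 were higher than in the fourth bin with all members in edgeR, while DESeq2 called 1. Without the low-keratin cells, 1 marker still passed the filter on low counts, and it was higher.

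Elovl4 averaged 95.5 CPM in the members and 405.8 in the fourth bin (log2 fold change -2.20, SE 0.25, adjusted p = 6.5e-09). Abca12, the lipid transporter of lamellar granules, differed by -1.79, Serpinb12 by -1.68, Psapl1 by -1.59, Krt23 by -1.63, Ephx3, an epoxide hydrolase, by -1.56 and Acer1 by -1.54. All were lower in 6 of 6 mice. The call of Ephx3 was lost in 1 of 18 alternatives (adjusted p = 0.057), and the calls of the other genes named here were kept in every alternative that tested them.

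Most genes that differed from both neighbours changed in 1 direction along the ranking. Of the 459 genes past the threshold in both tests, 247 rose through the members and 211 fell through them. No tested gene was higher in the members than in both neighbours (0.0% of 5303) in edgeR or in DESeq2, and 5 genes were at an unadjusted p under 0.05 in both tests. Fnbp1l, which encodes a membrane-curving F-BAR protein (minus strand, chr3:122538719-122619715 on GRCm38), was lower than in both (1 gene, 0.0189%). It stood at 40.5, 45.4 and 16.02 CPM in the members of the aged mice and at 17.1, 37.5 and 9.13 CPM in those of the young mice, with means of 61.6 CPM in the second and 49.6 in the fourth bin. The differences were -1.18 (SE 0.38, adjusted p = 0.022) and -1.05 (SE 0.37, adjusted p = 0.046). The call against the fourth bin was lost in 10 of 17 alternatives (adjusted p up to 0.179), among them leaving out any of aged mice 2 and 3 or young mice 1 to 3, merging barcodes 1 base apart and the same window of the ratio for every mouse. It was below each neighbour in 5 of 6 mice.

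**Figure D3:**
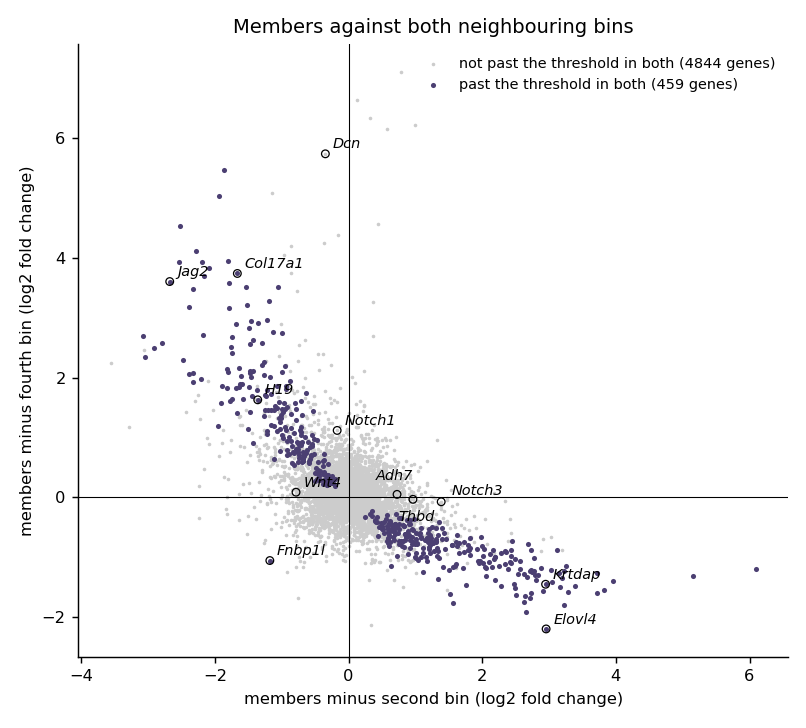
Log2 fold change of each of the 5303 tested genes in the members against the second bin (horizontal) and against the fourth bin (vertical), with the 459 genes past the threshold in both in dark. The dark genes lie at upper left (211, falling) and lower right (247, rising), and Fnbp1l at lower left.

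The members also varied among themselves along the ratio that chose them. When each mouse's members were divided at the middle of their ranking, Krtdap averaged 2360 CPM in the lower and 7044 CPM in the upper part and was higher in the upper part in 6 of 6 mice. Fabp5 averaged 1157 and 3001 CPM, with 6 of 6 mice alike. Col17a1 averaged 555 CPM in the lower and 210.2 CPM in the upper part, and Jag2 70.3 and 28.9 CPM, each higher in the upper part in 0 of 6 mice. Thbd averaged 497 and 446 CPM and was higher in the upper part in 3 of 6 mice, and Cyp2f2 averaged 4023 and 4259 CPM (4 of 6 mice). These parts follow from the ranking and are given with no test.

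Attachment genes of the basement membrane fell in steps through the members. Of 16 tested genes of basal adhesion and basement membrane, 13 were lower and 1 higher than in the second bin (median log2 fold change -1.46, all tested genes 0.00), and 12 were higher and none lower than in the fourth (median 1.90, all tested genes 0.04). Dst, a plakin that anchors keratin filaments, changed by -1.48 (SE 0.14) and 2.11 (SE 0.17). Itga6, the partner of Itgb4, changed by -1.22 (SE 0.15) and 1.79 (SE 0.19). Cd44, the hyaluronan receptor, was the exception: it was higher than in the second bin by 0.64 (SE 0.11, adjusted p = 3.1e-05) and differed from the fourth by -0.05 (SE 0.11, adjusted p = 0.84).

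Of 11 desmosomal genes, 9 were higher and 1 lower than in the second bin, and 1 was higher and 8 lower than in the fourth (medians 0.84 and -0.60). Dsp, desmoplakin, stood at 1308, 2244 and 2491 CPM in the members of the aged mice and at 3049, 1934 and 2465 CPM in those of the young mice, against means of 1296 in the second and 3468 in the fourth bin. Dsg2 was the desmosomal gene that fell. Dsc3, desmocollin 3, rose by 0.59 (SE 0.11, adjusted p = 4.0e-05) and differed by -0.07 (SE 0.10, adjusted p = 0.76) from the fourth bin. Of 6 tight and gap junction genes, Gja1 and Gjb2, both connexins, differed by 0.60 and 2.28 from the second bin and by -0.69 and -1.47 from the fourth. The other 4 passed neither test.

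Of 15 cornified envelope and barrier genes, 12 were higher and none lower than in the second bin, and 2 were higher and 11 lower than in the fourth (medians 1.93 and -0.82). Mt4, the metallothionein of stratified epithelia, averaged 870.2, 3631 and 6334 CPM over the second bin, the members and the fourth. Ly6d averaged 1300, 3353 and 4736 CPM, and Dmkn, dermokine, 804.8, 3042 and 5494 CPM. Krt6a, a keratin of hair follicle and wound epithelium, was 1 of the 2 genes higher than in the fourth bin. The rule had set aside cells high in surface markers, and as a description the summed superficial markers ranged from 273.7 to 1020 CPM in the members, with Cdsn at 0.

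Among Notch genes, 2 ligands fell and 2 receptors rose. Ligands lie on the sending cell and receptors on the receiving cell, where cleavage frees a fragment that joins Rbpj on DNA. The ligands Jag2 and Dll1 fell as above and were still higher than in the fourth bin. Jag2 averaged 48.1 CPM in the members and 2.55 in the fourth bin (6 counts), and Dll1 9.57 CPM from 13 counts against 2 counts. The call of Dll1 against the fourth bin was lost in 8 of 18 alternatives, among them leaving out aged mouse 1 or 2 or young mouse 2 or 3 (adjusted p up to 0.277). Notch3, a receptor, stood at 152, 160 and 100 CPM in the members of the aged mice and at 165, 145 and 201 CPM in those of the young mice. It was higher than in the second bin in 6 of 6 mice (log2 fold change 1.39, SE 0.26, adjusted p = 5.8e-05) and differed from the fourth by -0.07 (SE 0.22, adjusted p = 0.90). Notch1 passed against the other neighbour. It differed from the second bin by -0.17 (SE 0.21, adjusted p = 0.67) and was higher than in the fourth by 1.12 (SE 0.22, adjusted p = 2.4e-04). The receptor Notch2 and the feedback inhibitor Nrarp were higher than in the second bin by 1.00 and 1.91. The call of Notch2 (adjusted p = 0.047) was lost in 11 of 17 alternatives, among them leaving out the low-keratin cells (adjusted p = 0.076), any of the 3 aged mice or young mouse 1 (adjusted p up to 0.285). That of Nrarp was lost without aged mouse 3 (adjusted p = 0.10). Hes1, the classic target, passed neither test (-0.16 and -0.17), nor did Jag1 (0.44 and -0.04). In all, 3 of 9 tested genes were higher and 2 lower than in the second bin, and 3 were higher than in the fourth.

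Among 26 transcription factors of epithelial differentiation, 10 were higher and 1 lower than in the second bin, and 3 were higher and 5 lower than in the fourth. Grhl1 and Grhl3, grainyhead factors of barrier genes, were higher than in the second bin by 2.56 and 2.16, Ovol1 by 2.36, Zfp750 by 1.99 and Klf4 by 0.70. Trp63, the p63 factor of basal cells, was the 1 that was lower (-0.76). Klf5 (-0.02 and 0.03) and Pax9 (-0.20 and 0.15) passed neither test. Sox2, a foregut factor, differed by -0.16 (adjusted p = 0.44) from the second bin and by 0.41 (SE 0.12, adjusted p = 0.021) from the fourth, a call lost in 7 of 18 alternatives, with leaving out aged mouse 1 or 2 or young mouse 2 among them (adjusted p up to 0.161).

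Of 15 tested retinoid and aldehyde genes, 8 were higher and none lower than in the second bin, and 1 was higher and 6 lower than in the fourth (medians 0.73 and -0.34). Fabp5, which binds fatty acids and retinoic acid, averaged 455.4, 2150 and 4470 CPM over the second bin, the members and the fourth, and Rbp2, a retinol binding protein, averaged 39.1 CPM in the members against 0.51 in the second bin. Crabp2, which carries retinoic acid, was higher by 2.63, Aldh1a7 by 2.44, Aldh3b2 by 1.40, Aldh1a1 by 1.27 and Aldh3a1 by 0.97. Of 30 xenobiotic and glutathione genes, 8 were higher and 5 lower than in the second bin. Gsta4, a glutathione transferase, rose by 1.20 (SE 0.10), while Sult1d1, a sulfotransferase, changed by -2.26, Cbr2, a carbonyl reductase, by -1.27 and Sod1, a superoxide dismutase, by -0.65. Gstm1 passed neither test (0.16 and -0.03).

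Calcium-binding proteins, proteases and their inhibitors mostly rose, with 13 of 21 higher and 3 lower than in the second bin. S100a14 and S100a16 were higher by 0.83 and 1.01, and Spink5, a protease inhibitor of barrier epithelia, by 2.68. S100a6 and S100a10 differed by -0.82 and -0.69 from the second bin and by 1.08 and 0.76 from the fourth. S100a11 passed neither test (0.15 and 0.05).

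Of 11 targets of YAP, a coactivator that responds to cell attachment and stretch, 8 were lower and 1 higher than in the second bin (median -0.85). Ccn1 changed by -2.39, Ccn2 by -1.74, Ajuba by -0.85 and Amotl2 by 0.83. The call of Amotl2 was lost in 5 of 18 alternatives, young mouse 3 left out among them. Of the 11, 5 were higher than in the fourth bin with all members and 3 of 11 without the low-keratin cells. Of 22 growth factor and BMP, TGF-beta and WNT genes, 3 were higher and 6 lower than in the second bin. Wnt4, a WNT ligand, stood at 821, 550 and 525 CPM in the members of the aged mice and at 583, 680 and 478 CPM in those of the young mice, below the second bin in 6 of 6 (-0.79, SE 0.11, adjusted p = 1.2e-07), and differed from the fourth by 0.09 (SE 0.11, adjusted p = 0.68). Fgfr2, a fibroblast growth factor receptor, differed by -1.02 and 0.78. Hbegf, an EGF receptor ligand, was higher than in the second bin by 0.88 (SE 0.13).

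**Figure D4:**
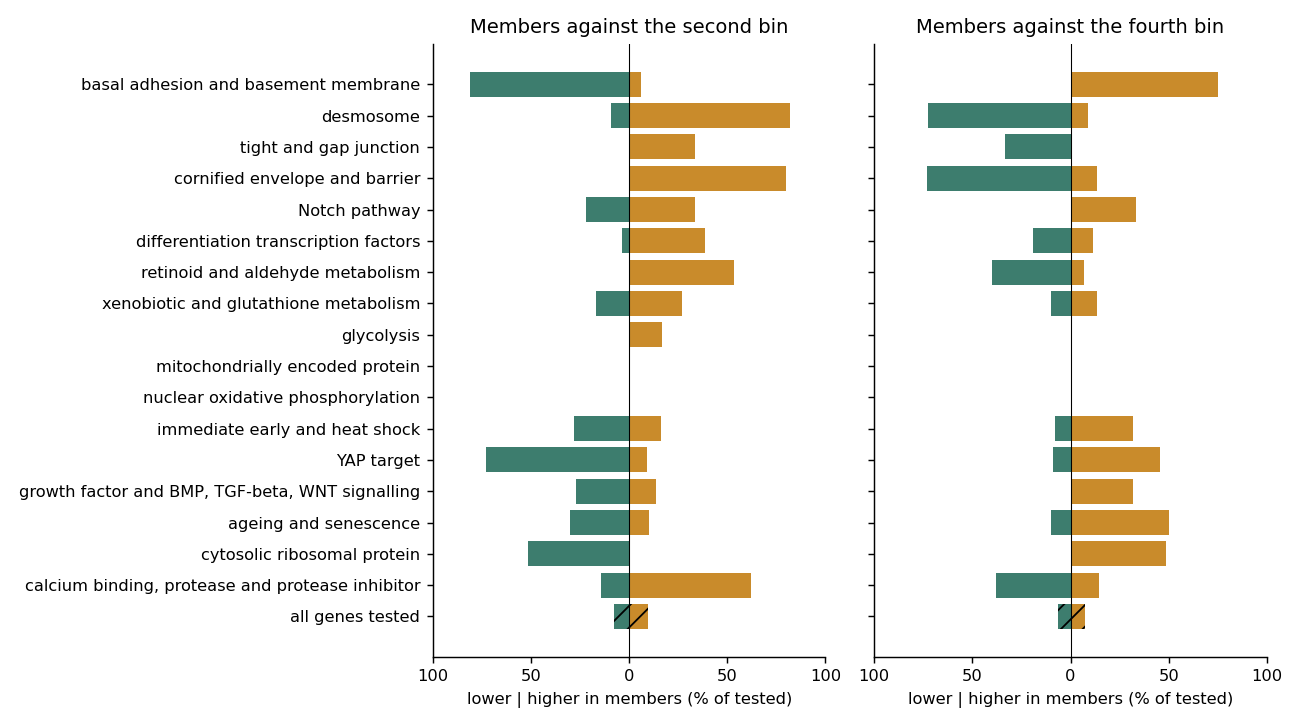
Share of the tested genes of each list that was higher (right, ochre) or lower (left, green) in the members than in the second bin (left panel) and the fourth bin (right panel), with all tested genes hatched. Attachment genes and desmosomal or barrier genes point opposite ways, and the 2 lists of oxidative phosphorylation have no bar.

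None of 45 nuclear genes of oxidative phosphorylation and none of 7 mitochondrially encoded protein genes passed edgeR's threshold against either neighbour, with medians between -0.08 and 0.07. DESeq2 also called none. Without adjustment, 5 of 45 and 1 of 7 had an edgeR p under 0.05 against each neighbour. Of 12 glycolysis genes, 2 were higher and none lower than in the second bin. This was 16.7% called, near the 17.6% of all tested genes called in either direction. Eno1 was among the 2, by 0.38 (SE 0.13, adjusted p = 0.032 in edgeR). Its call was lost in 10 of 18 alternatives, with leaving out aged mouse 2 or young mouse 1 or 3 among them. None of the 12 passed against the fourth bin (edgeR and DESeq2, 4 at an unadjusted p under 0.05 in edgeR). Of 33 ribosomal protein genes, 17 were lower than in the second bin and 16 higher than in the fourth, at medians of -0.28 and 0.27. With DESeq2's size factors the latter was 12 of 33. Cdkn1a, the cell cycle inhibitor p21, rose from a mean of 277.3 CPM in the second bin to 828.8 in the members (log2 fold change 1.62, SE 0.17, adjusted p = 1.6e-10) and 1211 in the fourth. Of 25 immediate early and heat shock genes, 4 were higher and 7 lower than in the second bin. Fos differed by -0.21 (adjusted p = 0.025) and 0.31 (adjusted p = 9.3e-04) from the 2 neighbours. The first of these was lost in 5 of 18 alternatives, among them leaving out aged mouse 3 or young mouse 2 or 3.

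The design asks how the epithelium of aged mice differs from that of young mice. Within the members, 1 of 4689 tested genes passed edgeR's threshold (0.0213%), and it was lower in aged mice. That gene was H19, a maternally expressed imprinted long noncoding RNA that is high in the embryo and low in most adult tissues (minus strand, chr7:142575529-142578143 on GRCm38). H19 stood at 213, 214 and 104 CPM in the members of the aged mice, from 21, 80 and 26 counts, and at 922, 927 and 794 CPM in those of the young mice, from 324, 173 and 261 counts. The groups did not overlap, and the log2 fold change was -2.28 (SE 0.27, adjusted p = 0.0016). The count of genes that did not overlap between the groups was 529 (11.3%), of which 197 were higher and 332 lower with age. Without adjustment, 192 genes had a p under 0.05. H19 was already on a list drawn from earlier results of these data, so the members are not independent evidence of its direction.

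H19 also fell along the ranking in both ages. From the first to the fourth bin it averaged 787, 623, 177 and 31.4 CPM in the aged group and 2385, 1980, 881 and 305.3 CPM in the young group. The young level was 3.03, 3.18, 4.98 and 9.71 times the aged level in the 4 bins, with no overlap between ages in any of them. The test of whether the age difference in the members differs from that in a neighbour gave -0.76 (SE 0.33, adjusted p = 1.00) against the second and 0.78 (SE 0.46, adjusted p = 1.00) against the fourth bin. The age difference kept its call in all 19 alternatives, with log2 fold changes between -2.58 and -1.84 and adjusted p-values of at most 0.0386.

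**Figure D5:**
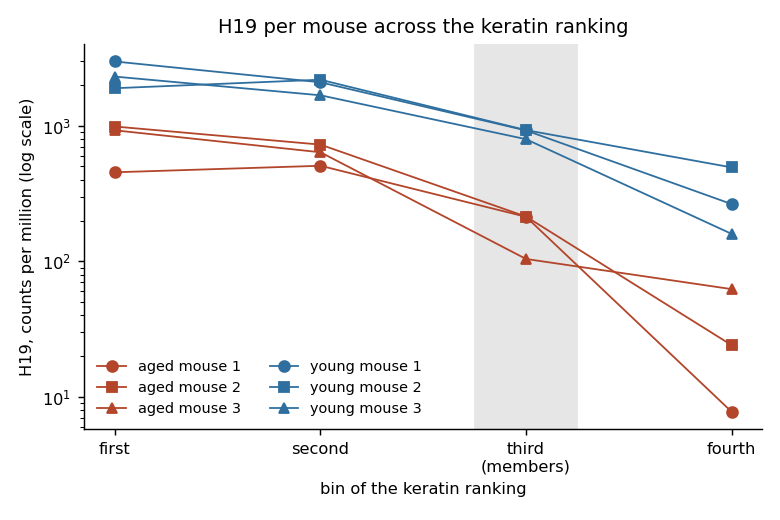
H19 in CPM (log axis) for each mouse in each bin of the keratin ranking, with the members shaded. Aged mice lie at 104 to 214 CPM and young mice at 794 to 927 CPM in the members.

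No other gene passed in this test. Among genes whose groups did not overlap, those with the lowest p-values were Atf3, a stress-induced transcription factor, at 902, 729 and 833 CPM in the members of the aged mice and 600, 396 and 438 CPM in those of the young mice (log2 fold change 0.81), Igfbp3 (2.59), Tsc22d1 (1.03), Wfdc2 (1.40) and Baz1a (1.35), which were above 0, and Maf (-1.81), Xrn1 (-2.05), Krt6a (-1.38), Atp2b1 (-1.12) and Ctsc (-0.82), which were below. Each had an adjusted p of 0.998 in edgeR. With no low-count filter Krt6a (adjusted p = 2.8e-04) and Maf (adjusted p = 0.0013) passed, and both did so without the low-keratin cells too (3.5e-04 and 0.0059). Other genes passed there as well. With no filter and all members, 8 genes were called higher and 29 lower in aged mice. Without the low-keratin cells 7 were called higher, among them Rpl10-ps3, Dst and Hoxc8, and 3 lower. Krt6a stood at 112, 160 and 393 CPM in the members of the aged mice and at 950, 504 and 405 CPM in those of the young mice. Igfbp3 rested on 0 to 18 counts per mouse.

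The markers that the rule did not use did not pass either. Their differences between aged and young were 0.36 for Thbd, -0.26 for Adh7 and 0.02 for Cyp2f2 on the log2 scale. Krt4 (-0.08) and Krt13 (-0.02) chose the cells within each mouse, so their values are a description and not a test. No list held a gene past the threshold except the 2 lists that hold H19. In the list of immediate early and heat shock genes, 23 of 25 were above 0 in aged mice (median 0.42, all tested genes 0.00), with 5 at an unadjusted p under 0.05 and none called in edgeR or DESeq2. All 7 tested mitochondrially encoded protein genes were above 0 (median 0.69), among them mt-Nd6 (0.95, SE 0.30) and mt-Cytb (0.70, SE 0.27), with 6 of 7 at an unadjusted p under 0.05 and none called in edgeR or DESeq2, while the 45 nuclear genes of oxidative phosphorylation had a median of 0.00. Each of the 7 was highest in aged mouse 2. The ages overlapped in mt-Nd6, with aged mouse 3 at 3773 CPM and young mouse 3 at 3847 CPM. Of the 13 genes of this list, 11 had a row. Among those, mt-Nd3, mt-Co3 and mt-Atp6 had 0 counts in the members of every mouse, and mt-Co2 had 1 count, in young mouse 2. The 7 tested genes are thus part of the list, and the values do not cover the others.

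Mitochondrial genes made up 8.16%, 9.84% and 5.84% of counts in the members of the aged mice and 5.04%, 5.78% and 5.02% in those of the young mice. The means were 7.95% ± 2.01 and 5.28% ± 0.432 (SD, n = 3 each), a difference of 2.67 percentage points. The groups did not overlap, by 5.84% against 5.78%, and the two-sided exact permutation p was 0.1, the smallest that 3 against 3 allows. Without the low-keratin cells the difference was 2.66 percentage points, the groups overlapped and the exact p was 0.2. Over mitochondrial protein genes alone the groups overlapped, with aged mouse 3 at 4.35% and young mouse 2 at 4.46% (exact permutation p = 0.2). Without aged mouse 2 the difference in the share of all mitochondrial genes was 1.72 percentage points. Along the ranking, the members were 0.247 percentage points below the second and 0.536 above the fourth bin (exact sign-flip p = 0.125 for both). With the same window of the ratio for every mouse the p was 0.03125 for both, the smallest that 6 mice allow. Against the fourth bin it was also 0.03125 ranked on thinned cells and with barcodes merged. The median depth was 2287 ± 477 counts per member in the aged group and 2212 ± 420 in the young group (SD, 3 mice each), and the groups overlapped (exact permutation p = 0.8).

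The age difference of the members was compared with that of the neighbours for every gene. No gene of 6277 passed against the second or the fourth bin in edgeR, with 222 and 176 genes at an unadjusted p under 0.05. DESeq2 was not run on this comparison. An age difference that differs between the members and a neighbour was not detected at this depth and number of mice.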

How the data were processed

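Single-cell RNA was measured in 12 libraries, 2 from each of 3 aged and 3 young mice. The authors' deposited tables hold whole-number counts per gene and cell barcode, not normalized. The submitters' processing notes name GRCm38, UMI-tools 1.0.0, STAR 2.7, Subread 2.0.0, featureCounts and Seurat, without their roles, and how molecular identifiers were treated is not given in the sources used here. The labels' extraction protocol describes inDrop and ends by naming Smart-Seq2. Cells were assumed to be inDrop cells.

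Counts were summed per barcode over the 2 libraries of a mouse, the rule was applied, and the bins were summed per mouse. CPM is counts per 1000000 summed counts. edgeR 4.0.16 (quasi-likelihood, TMM, filterByExpr, Benjamini-Hochberg 0.05) tested age in the members (6 sums) and each neighbour (24 sums, the mouse as a block, the 27 rule genes left out). DESeq2 1.42.0 was an alternative. Single values used exact tests. The fits were tested on simulated data with 100 genes changed at a log2 fold change of 1 and 100 at 2. The simulated counts had 1 mean per gene, with no differences in level between mice or bins other than these changes. The age fit recovered 27% and 76% of these. The fit against the second bin recovered 53% and 83%. The interaction with the fourth bin recovered 14% and 48%, so many real differences of this size could be missed. Unchanged genes called were 8, 6 and 5, in the same order. The real sums do differ between mice and bins, so these rates need not hold for them. Doublets were kept in, and Scrublet called 13 members, left out in an alternative. Named genes were those past the threshold by size with 6 of 6 mice alike and at least 50 CPM in either bin, the non-overlapping genes with the lowest p for age, and up to 4 genes of each list by level. Other genes of the lists were named after their values were seen. The members and lists were chosen with earlier results of these data known.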

Additional observations from a re-analysis of the deposited data

How the results depend on the processing

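The limits first: 34 members in aged mouse 1, 3 mice per age, and sparse counts for low genes. The number of genes called between ages was 37 with no low-count filter (Retnla, Cd74 and H2-Eb1 lead it), 10 with no filter and the low-keratin cells left out (those 3 not among them), 5 with the same window of the ratio for every mouse (H19, Sparc, Col3a1, Timp2 and Col1a1) and 1 to 5 with a mouse left out (5 without aged mouse 3), against 1. The low-keratin alternative alone called H19 only, and there Sparc was at 0.28 (adjusted p = 0.998, against -1.91 with all members) while Col3a1, Timp2 and Col1a1 no longer passed the filter. The same-window, low-keratin and merged-barcode alternatives were chosen after seeing the data. Deviations of same-numbered aged and young mice from the mean of their own age group correlated at -0.15, -0.14 and 0.00. Differently numbered mice were not compared, so these values do not settle if the numbers pair the samples. A fit of age with that number as a replicate block called 1 gene. Against the second bin 675 genes were called with no replicate block and 717 to 996 with a mouse left out. Against the fourth bin 442 were called with no replicate block and 483 to 693 with a mouse left out. There, 952 were called ranked on thinned cells. With barcodes merged 927 were called, of which 443 were higher and 484 lower. The count higher than both neighbours was 3 with no filter, 2 with the same window, 2 with barcodes merged and 0 to 1 with a mouse left out. The count lower than both was 0 with totals of genes outside the rule, with no replicate block and with a 10% mitochondrial limit, 3 ranked on thinned cells, 2 with the same window and 0 to 1 with a mouse left out. The interaction with the second bin gave 5 genes with no filter (Krtdap, Rgs2, Dmkn, Mt4 and H2-Ab1) and 0 otherwise. Of the named genes past the threshold, 81 of 91 against the second and 65 of 86 against the fourth bin were called in every alternative that tested them. The exceptions against the second were Amotl2, Atf3, Ccn2, Ctsc, Eno1, Fnbp1l, Fos, H19, Notch2 and Nrarp. Against the fourth they were Aldh3a1, Atf3, Ccn2, Cdkn1a, Crabp2, Dll1, Dsg2, Elf5, Ephx3, Fnbp1l, Fos, Grhl3, Igfbp3, Itga3, Krt80, Ly6d, Ovol1, S100a14, Sema3d, Sox2 and Zfp750. None of these reversed. The cause of these shifts was not tested.

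Differences from the fourth bin that were near 0 changed sign. Thbd was at 0.0051 with totals outside the rule, 0.0061 with members from replicate 1 libraries and -0.17 to 0.12 with a mouse left out. Adh7 was at -0.0053 with no filter, -0.0089 ranked on thinned cells and -0.032 to 0.13 with a mouse left out. Cyp2f2 was at -0.0198 with DESeq2's size factors, -0.0199 in DESeq2, -0.028 with no filter, -0.035 ranked on thinned cells, -0.052 with members from replicate 1 libraries and -0.025 to 0.089 with a mouse left out. The age difference in median counts per member was -121.5 with barcodes merged and -144.9 to 336.5 with a mouse left out.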
